A study of Mus musculus with 2 samples.

Results

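The liver makes most of the complement and coagulation proteins of the blood, and this account follows 38 of their genes in mouse liver. Of these, 18 act in complement, 19 in coagulation and fibrinolysis, and 1, Ahsg, encodes the plasma protein fetuin-A. A non-control probe was taken when its gene name in the scanner output of both arrays was one of the listed symbols or a synonym of it. All 38 genes were found, out of 22802 genes named on the array, with 51 of its 39429 probes. There were 26 genes with 1 probe and 12 with more than 1. Every one of the 38 was well above background in all 4 channels, and 0 of their 69 spots were saturated.

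RNA came from livers of C57BL/6 mice in 4 states: untreated wild-type, thioacetamide-treated wild-type, untreated AID transgenic and thioacetamide-treated AID transgenic. Thioacetamide, a liver toxin, was given in the drinking water for 6 months, and AID is an enzyme that edits antibody genes in B cells. Each genotype had 1 Agilent 2-colour array, with the treated liver in the Cy5 channel and the untreated liver in the Cy3 channel, and no dye-swapped array. Dye and treatment therefore cannot be told apart in a treatment ratio, and a dye effect of a probe could recur on both arrays. The sources used here give neither the promoter that drives the transgene, nor the age or sex of the mice, nor whether RNA was pooled. With 1 array per genotype no value has a replicate check and no test between mice could be made. A difference is therefore described by its size, and 2-fold (1 on the log2 scale) is the threshold for a count. Each ± gives the error that the scanner software assigns to a log2 ratio, and it covers the spot and not the mice.

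Complement starts when C1 or the mannose-binding lectins recognise a surface, and their proteases cut C4 and C2. C3 is then cleaved, C5 follows, and C6, C7, C8 and C9 assemble into the pore called the membrane attack complex. Coagulation passes from factor to factor to thrombin, which turns fibrinogen into fibrin, while plasmin dissolves it. Hepatocytes are the main source of most of these proteins, so their transcripts are abundant in liver, and several are acute-phase genes that respond to cytokines. Terminal complement components are known to be less abundant in female than in male mice.

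Transcripts tied to sex set the treated wild-type liver apart from the other livers. In it Xist was at least 6.18-fold higher, and the Y-linked genes Ddx3y and Eif2s3y were at least 17.6-fold and 32.1-fold lower, than in the untreated wild-type liver. On the AID transgenic array Ddx3y and Eif2s3y had log2 ratios of -0.11 and -0.05, and Xist was too dim in both channels to be well above background. A list of 18 measured male-biased liver genes had a median log2 treatment ratio of -2.74 in wild-type and -0.64 in AID transgenic mice. Thioacetamide exposure and this sex-linked difference cannot be told apart on the wild-type array, nor wherever the treated wild-type liver enters a comparison. Hepatocyte markers were abundant in every channel, as fits the labelled tissue, with a mean normalized log2 level between 16.23 and 16.52 over 11 genes. The level of the transgene was not analysed here.

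The 38 genes were on the whole lower in the treated than in the untreated liver of either genotype. In wild-type mice 33 had a log2 ratio below 0 and 5 above, with a median of -0.58, beside 0.03 for all measured genes. In AID transgenic mice 29 were below 0 and 9 above, with a median of -0.33, again beside 0.03. In wild-type mice 5 of the 38 were at least 2-fold lower after treatment (13.2%, where 1.64% of 16662 measured genes were lower), and all 5 are terminal complement genes. Only 1 of the 38 was at least 2-fold higher there, Mbl2 (2.63%, where 1.86% of measured genes were higher). In AID transgenic mice Mbl2 was higher and Mbl1 lower at 2-fold, beside 1.22% and 0.947% of 16692 measured genes. Median centring in place of loess raised the median of all genes to 0.35 and 0.34. Relative to all genes the members' median then moved from -0.61 to -0.16 in wild-type mice and from -0.36 to 0.01 in AID transgenic mice, so the small general shift depends on the scaling.

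**Figure D1:**
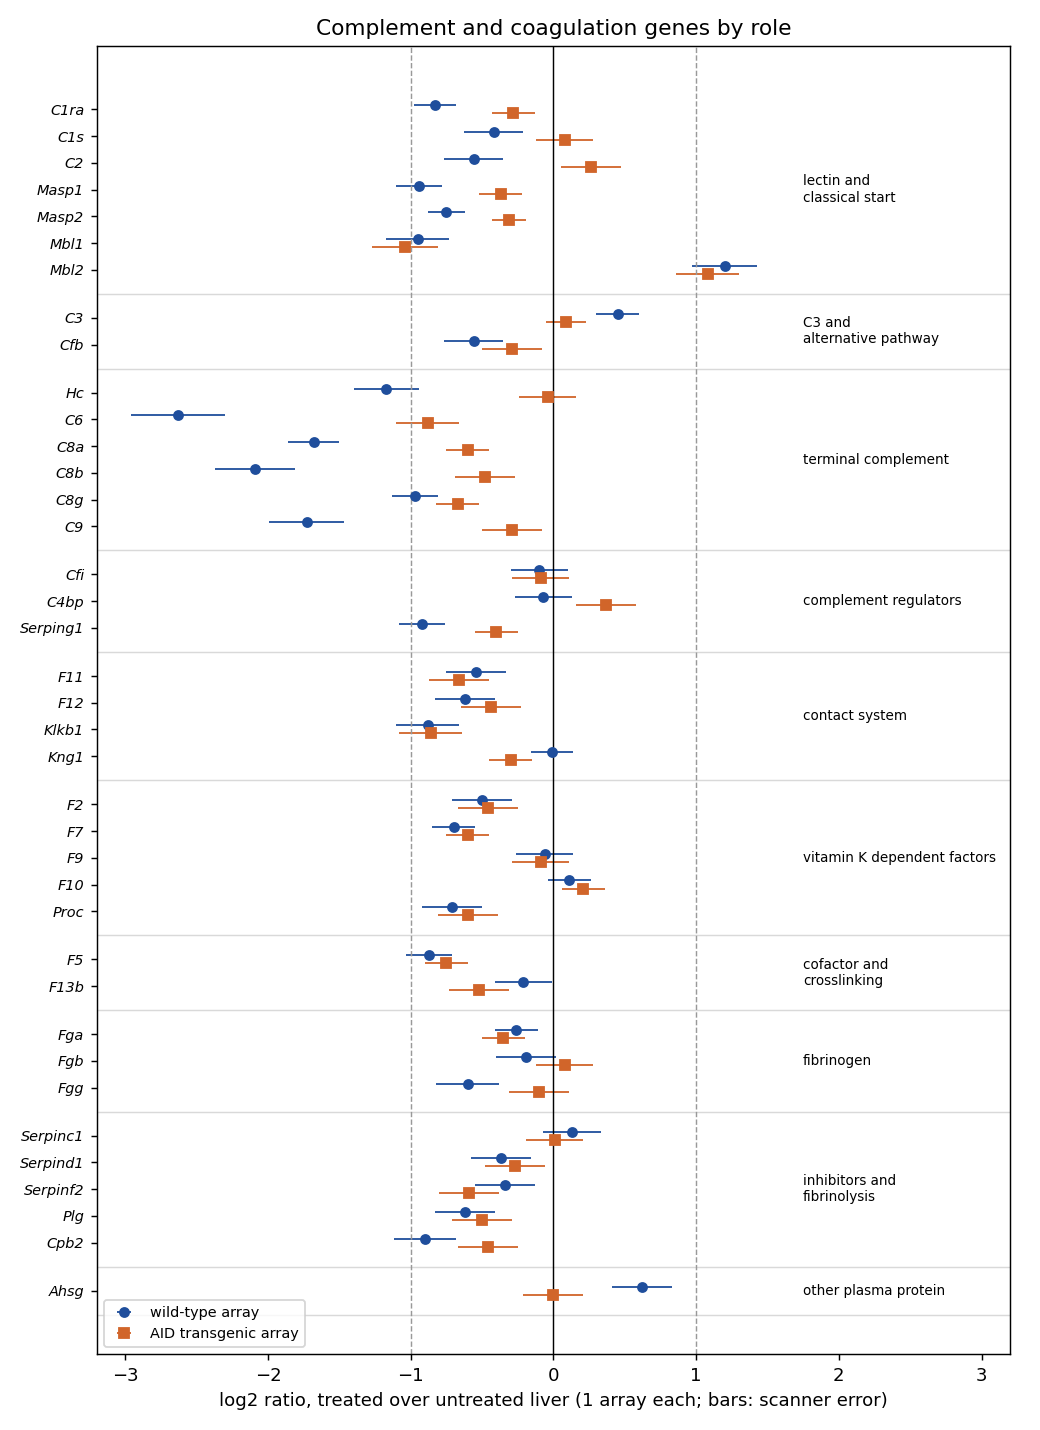
Log2 ratio of treated over untreated liver for each of the 38 genes, grouped by role, on the wild-type array (circles) and the AID transgenic array (squares). Bars are the scanner software's error, and dashed lines mark 2-fold. In the terminal complement group C6, C8b, C9, C8a and Hc lie beyond 2-fold lower on the wild-type array and within 2-fold on the AID transgenic array.

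In wild-type mice the terminal complement genes had the lowest median treatment ratio of the role groups. The normalized log2 level of C6, which binds C5b and opens assembly of the pore, was 11.90 in the untreated and 9.27 in the treated wild-type liver, and 12.10 and 11.22 in the untreated and treated AID transgenic livers. The treated wild-type liver was the lowest, the treated AID transgenic liver came next, and the untreated livers differed by 0.20. The treatment ratio of C6 was -2.63 ± 0.33, a 6.21-fold lower level, in wild-type mice and -0.88 ± 0.22 in AID transgenic mice.

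C8 is built from 3 chains encoded by C8a, C8b and C8g, and the genes of its alpha and beta chains showed the pattern of C6. C8b stood at 14.20 untreated and 12.11 treated in wild-type livers, and at 14.14 and 13.66 in AID transgenic livers. C8a stood at 12.15 and 10.47 in wild-type livers and at 12.09 and 11.49 in AID transgenic livers. Again the treated wild-type liver lay far below the others, and the treated AID transgenic liver lay below both untreated livers by less. The wild-type ratios were -2.09 ± 0.28 for C8b and -1.68 ± 0.18 for C8a, against -0.48 ± 0.21 and -0.60 ± 0.15 in AID transgenic mice. C8g, the gamma chain gene of the lipocalin family, differed from the other chains: its levels were 14.42 and 13.46 in wild-type livers and 14.21 and 13.54 in AID transgenic livers. Both treated livers were again lower, with ratios of -0.97 ± 0.16 and -0.67 ± 0.15, but the treated livers differed by only 0.09. The C8g probes differed in size, at -1.17 and -1.0 for 1 probe and -0.77 and -0.35 for the other. With the scanner software's processed signals C8g had -1.01 in wild-type mice, just beyond 2-fold.

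C9, which polymerises into the pore wall, had levels of 11.93 and 10.20 in wild-type livers and 12.12 and 11.82 in AID transgenic livers. Hc, which encodes C5, had levels of 16.12 and 14.94 in wild-type livers and 15.92 and 15.89 in AID transgenic livers. For both genes the treated AID transgenic liver kept close to the untreated livers. The wild-type ratios were -1.73 ± 0.26 for C9 and -1.17 ± 0.23 for Hc, and the AID transgenic ratios -0.29 ± 0.21 and -0.04 ± 0.20. In bulk liver, fewer hepatocytes and less of a transcript per hepatocyte cannot be told apart.

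**Figure D2:**
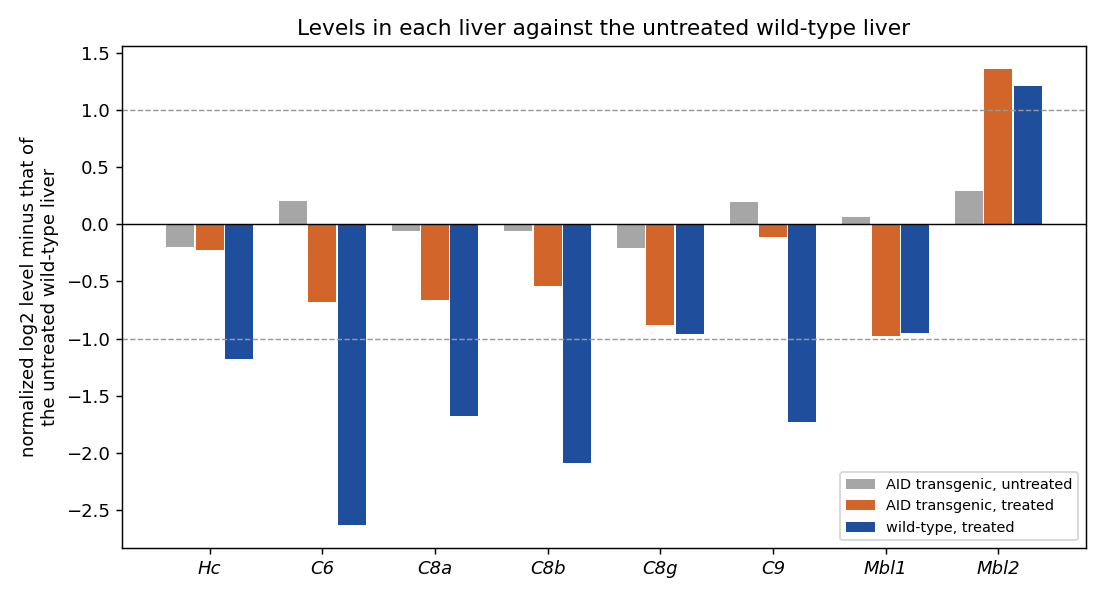
Normalized log2 level of the terminal complement genes and the mannose-binding lectin genes in 3 livers, each minus the level in the untreated wild-type liver, with 1 array channel per bar. Dashed lines mark 2-fold. C6 reaches -2.63 in the treated wild-type liver and -0.68 in the treated AID transgenic liver, whereas Mbl1 is about as low, and Mbl2 about as high, in both treated livers.

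Over the 6 terminal genes the median ratio was -1.70 in wild-type and -0.54 in AID transgenic mice, and all 6 were below 0 on both arrays. The other 32 members had medians of -0.52 and -0.31. With median centring the medians became -1.02 for the terminal genes and 0.30 for the other members in wild-type mice, and C6, C8b and C9 remained at 2-fold, with C6 at -1.96, C8b at -1.35, C9 at -1.04, C8a at -0.99 and Hc at -0.35. On the AID transgenic array median centring left C6 at -0.20 and put C8a, C8b, C9, C8g and Hc between 0.07 and 0.75, beside 0.34 for all genes. Against all genes C6, C8a, C8b and C8g were then still lower, while C9 at 0.40 and Hc at 0.75 were higher. Values were similar against the other untreated channel. Set against the untreated AID transgenic liver, the treated wild-type liver had log2 differences of -2.83 for C6, -2.04 for C8b, -1.91 for C9, -1.63 for C8a and -0.98 for Hc. The Y-linked and male-biased transcripts described above were low in the same channel.

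The sequence before the start of these genes is shown for C6, C8a, C8b, C9 and Hc, which were low together, and for Mbl2, the member at 2-fold higher. Each window holds the 250 bases before the RefSeq gene start in mouse build GRCm38.p6, 5′ to 3′ on the strand of the gene. Matches of the motifs reported here are in capitals. C8a and C8b lie next to each other on chromosome 4 with 0 protein-coding genes between them.
C6 (chr15:4726960-4727209, plus strand): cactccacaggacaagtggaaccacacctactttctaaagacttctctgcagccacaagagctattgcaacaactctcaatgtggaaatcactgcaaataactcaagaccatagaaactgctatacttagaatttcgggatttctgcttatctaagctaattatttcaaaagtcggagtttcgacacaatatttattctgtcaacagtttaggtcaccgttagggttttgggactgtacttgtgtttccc
C8a (chr4:104876399-104876648, minus strand): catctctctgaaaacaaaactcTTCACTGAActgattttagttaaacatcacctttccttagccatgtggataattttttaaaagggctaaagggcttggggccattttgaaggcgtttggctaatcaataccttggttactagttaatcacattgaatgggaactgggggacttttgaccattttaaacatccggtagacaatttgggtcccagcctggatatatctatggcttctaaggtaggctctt
C8b (chr4:104766067-104766316, plus strand): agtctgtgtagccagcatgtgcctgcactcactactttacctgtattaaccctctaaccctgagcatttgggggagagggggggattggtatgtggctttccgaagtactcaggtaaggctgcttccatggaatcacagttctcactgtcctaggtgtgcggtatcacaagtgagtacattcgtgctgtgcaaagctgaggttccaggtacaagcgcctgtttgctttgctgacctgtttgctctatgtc
C9 (chr15:6445096-6445345, plus strand): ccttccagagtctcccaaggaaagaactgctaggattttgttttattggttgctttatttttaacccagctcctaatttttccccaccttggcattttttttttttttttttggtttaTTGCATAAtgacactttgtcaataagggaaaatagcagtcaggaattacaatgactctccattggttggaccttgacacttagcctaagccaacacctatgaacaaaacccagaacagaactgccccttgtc
Hc (chr2:35061413-35061662, minus strand): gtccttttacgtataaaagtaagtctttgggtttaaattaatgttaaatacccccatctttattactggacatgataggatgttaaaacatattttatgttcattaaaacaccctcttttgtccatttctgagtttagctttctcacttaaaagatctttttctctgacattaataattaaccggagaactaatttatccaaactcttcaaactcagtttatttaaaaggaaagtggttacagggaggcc
Mbl2 (chr19:30232678-30232927, plus strand): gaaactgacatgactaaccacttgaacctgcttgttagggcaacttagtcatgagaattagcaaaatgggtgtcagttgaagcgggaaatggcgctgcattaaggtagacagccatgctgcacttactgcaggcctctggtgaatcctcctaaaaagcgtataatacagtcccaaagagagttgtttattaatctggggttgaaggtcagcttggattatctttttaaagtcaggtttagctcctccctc
The motifs searched, on both strands, belong to factors known to act in hepatocytes. The STAT letters TTCNNNGAA are the capital run of C8a, and the C/EBP letters TTGCNNAA that of C9. The windows of C6, C8b, Hc and Mbl2 held none of the motifs reported here, and no matches of these motifs overlapped in the windows shown. Windows were matched for 30 of the 38 genes, and Proc, Masp1, Cfb, Serping1, Kng1, Plg, Cfi and C2 had none. TTGCNNAA occurred in 8 of these 30 windows (26.7%), and in 9.56% of all 32851 windows. TTCNNNGAA occurred in 5 (16.7%, beside 7.02%) and the type II interleukin-6 element CTGGGAA in 5 (16.7%, beside 9.1%). CAAAGTCCA for HNF4 and the palindromic element of the glucocorticoid receptor matched in 0 of the 30, beside 0.384% and 0.00913% of all windows. A match is only a run of letters, and no binding was measured.

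The mannose-binding lectin genes differed from the untreated level in opposite directions, and alike in both genotypes. Mbl2, encoding the lectin MBL-C, had log2 levels of 14.81 and 16.02 in the untreated and treated wild-type livers and 15.10 and 16.17 in the AID transgenic livers. Mbl1, encoding MBL-A, had levels of 11.53 and 10.58 in the wild-type livers and 11.59 and 10.55 in the AID transgenic livers. For each gene the treated livers lay on the same side of both untreated livers. Each gene has 1 probe, and a dye effect of that probe cannot be told apart from treatment here. Mbl2 had ratios of 1.20 ± 0.23 and 1.08 ± 0.22, and Mbl1 -0.95 ± 0.22 and -1.04 ± 0.23, in wild-type and AID transgenic mice. The differences between genotypes, -0.13 and -0.09, were smaller than their scanner error of 0.32. With the scanner software's processed signals Mbl2 had 0.99 in AID transgenic mice, just under 2-fold. Median centring gave Mbl2 2.02 and 1.86 and Mbl1 -0.26 and -0.36, which keeps both directions but takes Mbl1 far from 2-fold.

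In the treated wild-type liver the proteases that act after recognition were lower, and in the treated AID transgenic liver they were nearer to the untreated level. Masp1 and Masp2, which encode the lectin pathway proteases, had ratios of -0.94 ± 0.16 and -0.75 ± 0.13 in wild-type and -0.37 ± 0.15 and -0.31 ± 0.12 in AID transgenic mice. The levels of Masp1 were 10.46 and 9.52 in wild-type livers and 10.13 and 9.76 in AID transgenic livers. C1ra and C1s, the neighbouring genes on chromosome 6 for the C1 proteases, had -0.83 ± 0.15 and -0.42 ± 0.21 in wild-type mice. In AID transgenic mice they had -0.28 ± 0.15 and 0.08 ± 0.20. C2, the protease part of the classical C3 convertase, had levels of 13.78 and 13.21 in wild-type livers and 13.79 and 14.05 in AID transgenic livers. The untreated livers were equal to within 0.01, and the treated livers lay on opposite sides of them, at -0.56 ± 0.21 and 0.26 ± 0.21. Over the 7 genes of this group the median ratio was -0.75 in wild-type and -0.28 in AID transgenic mice. Median centring gave Masp1 -0.33 and 0.21, C1ra -0.10 and 0.43, C1s 0.31 and 0.80, and C2 0.18 and 1.0. All genes then had 0.35 and 0.34, so which treated liver lay nearer to the untreated level depends on the scaling.

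C3, on which all complement routes converge, was one of 5 members above 0 in wild-type mice. Its levels were 16.71 and 17.15 in wild-type livers and 16.90 and 16.99 in AID transgenic livers, with ratios of 0.45 ± 0.15 and 0.09 ± 0.14. Cfb, encoding the alternative pathway protease factor B, had 15.39 and 14.84 in wild-type livers and 15.29 and 14.99 in AID transgenic livers. The ratios of Cfb were -0.56 ± 0.21 and -0.29 ± 0.21, so with loess it was lower and C3 higher in treated wild-type liver. In AID transgenic mice C3 was within the scanner error, and its probes disagreed, at 0.31 and -0.12. Median centring gave Cfb 0.25 and 0.48 and C3 1.32 and 0.92, beside 0.35 and 0.34 for all genes. Cfb and C2 are adjacent on chromosome 17, and their wild-type ratios were equal at -0.56.

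Of the 3 complement regulators, 1 was lower beyond the scanner error on both arrays with loess, a rule not counted here over all genes. Serping1, encoding the C1 inhibitor that also restrains kallikrein, had levels of 14.57 and 13.64 in wild-type livers and 14.56 and 14.17 in AID transgenic livers. Its ratios were -0.92 ± 0.16 and -0.40 ± 0.15. Median centring gave it -0.15 and 0.35, beside 0.35 and 0.34 for all genes, so the lower value in AID transgenic mice depends on the scaling. Cfi, encoding the protease factor I that cleaves C3b and C4b, had ratios of -0.10 ± 0.20 and -0.09 ± 0.20, within the scanner error. C4bp, the C4b-binding protein gene, had levels of 15.06 and 15.00 in wild-type livers and 14.79 and 15.16 in AID transgenic livers. The untreated AID transgenic liver was its lowest channel, and the ratios were -0.07 ± 0.20 and 0.37 ± 0.21.

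Over the 19 coagulation and fibrinolysis genes the median ratio was -0.50 in wild-type and -0.46 in AID transgenic mice, whereas over the 18 complement genes it was -0.87 and -0.29. Without the terminal genes, the 12 other complement genes had medians of -0.56 and -0.19. With loess none of the 19 reached 2-fold on either array. The difference between the treatment ratios had a median of 0.10 for the coagulation genes and 0.51 for the complement genes. Ratios of single coagulation genes below are those with loess. Median centring raised them, for F2 to 0.34 and 0.33, beside 0.35 and 0.34 for all genes.

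The contact system, which starts clotting on charged surfaces and releases bradykinin, was lower in both treated livers with 1 exception. Klkb1, the plasma prekallikrein gene, had levels of 13.36 and 12.47 in wild-type livers and 13.49 and 12.63 in AID transgenic livers. Its ratios were -0.88 ± 0.22 and -0.86 ± 0.22, and those of its neighbour on chromosome 8, the factor XI gene F11, were -0.54 ± 0.21 and -0.66 ± 0.21. F12, which encodes factor XII, had -0.62 ± 0.21 and -0.44 ± 0.21. Kng1, the kininogen gene, had levels of 15.09 and 15.08 in wild-type livers and 15.19 and 14.90 in AID transgenic livers. Its mean ratios of -0.01 ± 0.15 and -0.30 ± 0.15 hide probes that disagreed.

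The Kng1 probes are assigned by the array design to different accessions, NM_001102411 and NM_023125, and the F10 probes to the same one, and both pairs pointed in opposite directions. A stretch of each probe is shown because the value of these genes turns on which probe is read, with coordinates of build mm9, in which the array design is annotated.
Kng1 first probe (chr16:23079732-23079761, plus strand): atttgatccctgatatccatgtacagccag
Kng1 second probe (chr16:23081700-23081729, plus strand): agcgcgggaccatcgtcttcatcaccctga
F10 first probe (chr8:13055774-13055803, plus strand): tggcatctacacaaaggtcacgaccttcct
F10 second probe (chr8:13056149-13056178, plus strand): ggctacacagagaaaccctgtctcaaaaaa
The first Kng1 probe had ratios of -0.67 ± 0.21 and -0.91 ± 0.22, and the second 0.64 ± 0.21 and 0.31 ± 0.20, in wild-type and AID transgenic mice. Both genotypes thus showed the same split between the probes, and which transcripts each probe reads was not tested. Dye effects of the probes cannot be told apart from treatment in this split. The first F10 probe had -0.43 and -0.44, and the second 0.64 and 0.87. The second F10 probe shares at least 25 bases in a row with 6 probes of other genes and with 34 RefSeq promoter windows, so its signal need not come from F10 alone. None of the other 50 member probes shares 25 bases with a probe of another gene.

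**Figure D3:**
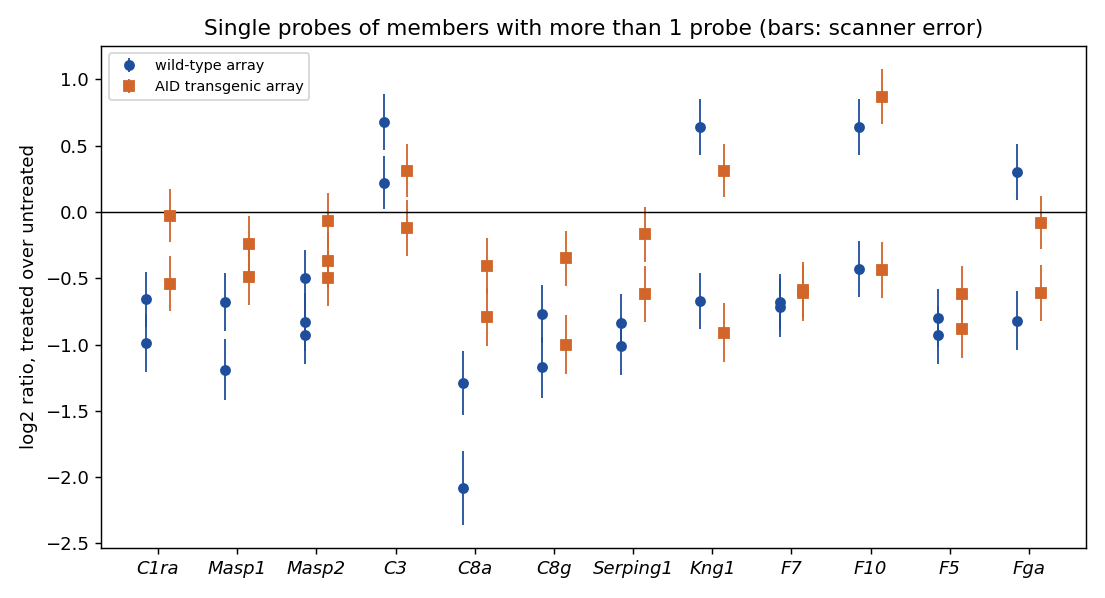
Log2 ratio of treated over untreated liver for each single probe of the 12 genes with more than 1 probe, on the wild-type array (circles) and the AID transgenic array (squares). Bars are the scanner software's error. The probes of Kng1 and F10 lie on both sides of 0 on both arrays, and the probes of C8a are all below 0.

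Among the vitamin K dependent factors, whose glutamates are carboxylated in the liver, 3 of 5 were lower beyond the scanner error on both arrays. F2, the prothrombin gene, had levels of 16.25 and 15.75 in wild-type livers and 16.26 and 15.79 in AID transgenic livers. F7, which encodes factor VII that pairs with tissue factor, had 11.31 and 10.61 in wild-type livers and 11.29 and 10.69 in AID transgenic livers. Proc, encoding the anticoagulant protein C, had 15.60 and 14.89 in wild-type livers and 15.63 and 15.03 in AID transgenic livers. In each of these genes both treated livers lay below both untreated livers, with wild-type ratios of -0.50 ± 0.21, -0.70 ± 0.15 and -0.71 ± 0.21 and AID transgenic ratios of -0.46 ± 0.21, -0.60 ± 0.15 and -0.60 ± 0.21. F9, the gene of factor IX that is missing in haemophilia B, had -0.06 ± 0.20 and -0.09 ± 0.20. F10, encoding factor X at the joint of the clotting pathways, had levels of 15.95 and 16.06 in wild-type livers and 15.95 and 16.16 in AID transgenic livers. Its ratios were 0.11 ± 0.15 and 0.21 ± 0.15 over both probes and -0.43 and -0.44 without the repeated sequence.

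F5, encoding the factor V cofactor of prothrombin cleavage, had levels of 12.07 and 11.20 in wild-type livers and 12.02 and 11.27 in AID transgenic livers. Its ratios of -0.87 ± 0.16 and -0.75 ± 0.15 were among the lowest of the coagulation genes in both genotypes. F13b, the carrier subunit of the fibrin-crosslinking factor XIII, had levels of 11.62 and 11.41 in wild-type livers and 11.77 and 11.25 in AID transgenic livers. The ratios of F13b were -0.21 ± 0.20 and -0.52 ± 0.21.

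The 3 fibrinogen chain genes, which lie side by side on chromosome 3, lay within 0.60 log2 units of the untreated level on both arrays. Fgg, the gamma chain gene, had levels of 17.39 and 16.80 in wild-type livers and 17.15 and 17.04 in AID transgenic livers. Fgb, the beta chain gene, had 16.51 and 16.31 in wild-type livers and 16.46 and 16.54 in AID transgenic livers. Fga, the alpha chain gene, had 12.60 and 12.33 in wild-type livers and 12.42 and 12.08 in AID transgenic livers. Fgg in the treated wild-type liver was the lowest against its untreated channel, at -0.60 ± 0.22, and in AID transgenic mice it had -0.10 ± 0.21. Fgb had -0.19 ± 0.21 and 0.08 ± 0.20, and Fga -0.26 ± 0.15 and -0.35 ± 0.15. The probes of Fga disagreed in wild-type mice, at -0.82 and 0.30, so its mean describes neither probe there.

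Cpb2, whose product TAFI slows fibrin breakdown, had levels of 14.42 and 13.53 in wild-type livers and 14.23 and 13.77 in AID transgenic livers. Its ratios were -0.90 ± 0.22 and -0.46 ± 0.21. Plg, the plasminogen gene, had -0.62 ± 0.21 and -0.50 ± 0.21, and Serpinf2, encoding the plasmin inhibitor alpha-2-antiplasmin, had -0.34 ± 0.21 and -0.59 ± 0.21. The levels of Serpinf2 were 15.58 and 15.24 in wild-type livers and 15.74 and 15.15 in AID transgenic livers. So with loess plasmin's precursor and its inhibitor were both lower in treated liver. Median centring gave Plg 0.20 and 0.28 and Serpinf2 0.48 and 0.19, beside 0.35 and 0.34 for all genes, so these directions depend on the scaling. Serpind1, the heparin cofactor II gene, had -0.37 ± 0.21 and -0.27 ± 0.21. Serpinc1, the antithrombin gene, had levels of 16.53 and 16.66 in wild-type livers and 16.62 and 16.63 in AID transgenic livers, and its ratios of 0.13 ± 0.20 and 0.01 ± 0.20 lay within the error. Ahsg, encoding fetuin-A that keeps calcium phosphate in solution, had levels of 17.04 and 17.66 in wild-type livers and 17.44 and 17.45 in AID transgenic livers. Here the untreated wild-type liver was the low one, and the ratios were 0.62 ± 0.21 and 0.00 ± 0.21.

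The treatment ratios of the 38 genes on the arrays had a Pearson r of 0.66 and a Spearman rho of 0.64, which describe genes of 1 tissue that share slide, dyes and probes. Over 17106 measured genes they were 0.61 and 0.62. The sign was the same for 34 of the 38, beside 12467 of all 17106, and the size was larger in wild-type mice for 29, beside 9618. The difference of the ratios, AID transgenic minus wild-type, was within the scanner error for 19 of the 38, above it for 15 and below it for 4. It was within the error for 13668 of all 17106 genes. These shares are not like for like, since all genes include dim ones with larger errors and the members do not. At 2-fold the difference of the ratios was higher for C6, C8a, C8b, C9 and Hc, beside 0.929% of measured genes, and lower for 0 members, beside 1.05%. It was 1.75 ± 0.39 for C6, 1.61 ± 0.35 for C8b, 1.43 ± 0.33 for C9, 1.14 ± 0.31 for Hc and 1.08 ± 0.24 for C8a. The next was C2 at 0.82 ± 0.29, and the lowest was Ahsg at -0.62 ± 0.29.

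**Figure D4:**
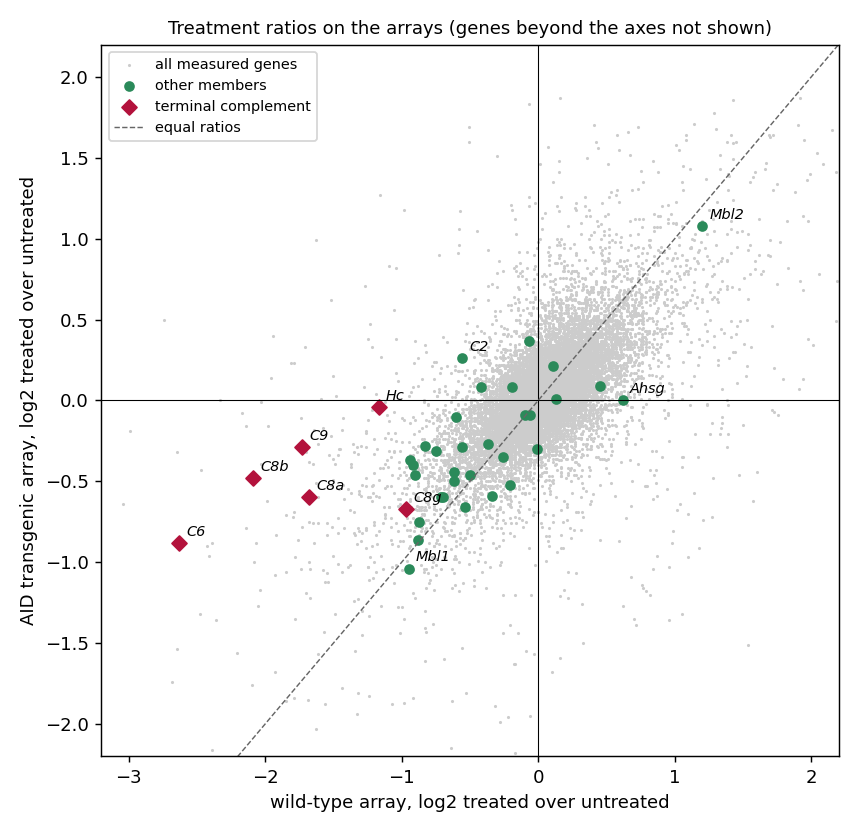
Log2 treatment ratio on the wild-type array (horizontal) against the AID transgenic array (vertical) for all measured genes (grey), the 6 terminal complement genes (diamonds) and the other 32 members (circles), with grey genes beyond the axes not drawn. The dashed line marks equal ratios. Diamonds lie above the line, C8g nearest to it, while Mbl1 and Mbl2 lie close to the line at opposite ends.

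The same genes were compared between genotypes in livers of 1 treatment state, after Aquantile normalization between the arrays. In untreated livers 0 members reached 2-fold in either direction, beside 0.308% of 14296 measured genes higher and 0.294% lower in AID transgenic mice. The members lay between -0.32 (Masp1) and 0.41 (Ahsg), with a median of -0.02. In treated livers C6, C8b, C9 and C8a were higher at 2-fold in AID transgenic mice (4 of 38, beside 0.732% of 17078 measured genes), at 1.95, 1.55, 1.62 and 1.02. Hc followed at 0.94 and C2 at 0.83, while C8g had 0.09, and 0 members were lower at 2-fold, beside 0.761%. The lowest was F11 at -0.42. These treated livers differ in the sex-linked transcripts as well, since male-biased liver genes had a median of 1.27 and female-biased genes of -2.18 in the same comparison.

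Other genes of these pathways were followed through a list of 55, of which 49 were measured on each array. Their median ratio was -0.23 in wild-type and -0.14 in AID transgenic mice. Below 0 were 34 and 28 of them, beside 7547 of 16662 and 7581 of 16692 measured genes. In wild-type mice 4 were lower at 2-fold and 1 higher, beside 1.64% and 1.86% of all measured genes. In AID transgenic mice 2 were lower and 1 higher, beside 0.947% and 1.22%. C4b, which encodes complement C4 cut by the C1 and lectin proteases, had -1.32 ± 0.24 in wild-type and -0.33 ± 0.21 in AID transgenic mice. A near-identical copy of C4b exists in the mouse genome, so this value may hold both. Susd4, encoding a membrane protein that inhibits complement, was far lower in both treated livers, at -4.65 ± 0.52 and -3.96 ± 0.45. It is also on the male-biased list. Serpine2, a thrombin inhibitor gene, was at least 4.63-fold lower in treated wild-type liver and had -1.56 ± 0.36 in AID transgenic mice. Cfd, the factor D gene, was at least 2.15-fold lower in treated wild-type liver. Gas6, encoding a vitamin K dependent ligand of TAM receptors, had 1.38 ± 0.24 and 0.69 ± 0.21, and Serpina5, the protein C inhibitor gene, was at least 2.75-fold higher in treated AID transgenic liver.

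Cell type markers were followed beside these genes. Over 11 hepatocyte markers the median ratio was -0.17 in wild-type and 0.09 in AID transgenic mice. Kupffer cell and macrophage markers had a median of 0.15 in wild-type and 1.0 in AID transgenic mice. In the latter 5 of 11 were higher at 2-fold, beside 1.22% of all measured genes. The mean log2 level of these 11 markers was 9.84 and 10.05 in the untreated and treated wild-type livers and 10.10 and 10.96 in the AID transgenic livers. Between the untreated livers Marco differed most, at 10.07 in wild-type and 12.6 in AID transgenic mice. The median difference of the 11 there was 0.05. All 11 were well above background in every channel. C1qa, C1qb and C1qc, complement genes that macrophages express, had -0.29, -0.34 and 0.15 in wild-type and 0.22, 0.47 and 0.88 in AID transgenic mice. The part of macrophages in these C1q values was not tested. Stellate cell and myofibroblast markers, 8 genes well above background in every channel, had medians of 0.29 and -0.38, with mean log2 levels of 8.46 and 8.88 in wild-type and 8.88 and 8.31 in AID transgenic livers. Sinusoidal endothelium markers had -0.15 and 0.09, and the part of these cells in the members' values was not tested.

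Acute-phase genes outside the 38 already differed between the untreated livers. Of 18 measured, 16 were lower in the untreated AID transgenic than in the untreated wild-type liver, beside 7309 of all 14296 measured genes. Their median was -0.50, and the serum amyloid genes Saa1 and Saa2 had -2.28 and -2.71. Among members that also belong to this response, C3 had 0.19, Fga -0.17, Fgb -0.05 and Fgg -0.25 in the same comparison. Over all 38 members the median there was -0.02. The treatment ratios of the 18 genes had a median of -0.72 in wild-type mice, with 14 below 0, and -0.31 in AID transgenic mice, with 11 below 0. Of all measured genes, 7547 of 16662 on the wild-type and 7581 of 16692 on the AID transgenic array were below 0. Saa1 and Saa2 differed most between genotypes, with -2.13 ± 0.28 and -2.48 ± 0.31 in wild-type but 1.80 ± 0.27 and 2.50 ± 0.31 in AID transgenic mice, and Orm1, encoding an acid glycoprotein, had -1.47 ± 0.24 and -1.01 ± 0.22. Among 21 regulators of these genes the medians were -0.09 and 0.05, with 11 and 10 below 0. Il1b, the interleukin-1 beta gene, differed most between genotypes, with -0.57 ± 0.23 and 2.30 ± 0.37. The transcription factor gene Stat3 had -0.68 ± 0.16 and 0.09 ± 0.16, the cytokine signalling inhibitor gene Socs3 -0.38 ± 0.21 and 0.28 ± 0.21, and the repressor gene Bcl6 1.03 ± 0.23 and 0.54 ± 0.21. The C/EBP factor gene Cebpa had -1.12 ± 0.23 and -0.39 ± 0.21, Cebpb -0.80 ± 0.22 and -1.13 ± 0.23, and Cebpd -0.92 ± 0.22 and -1.19 ± 0.23. Il6ra, the interleukin-6 receptor gene, had -0.84 ± 0.22 and -1.04 ± 0.22. The part of any of these regulators in the members' values was not tested.

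**Figure D5:**
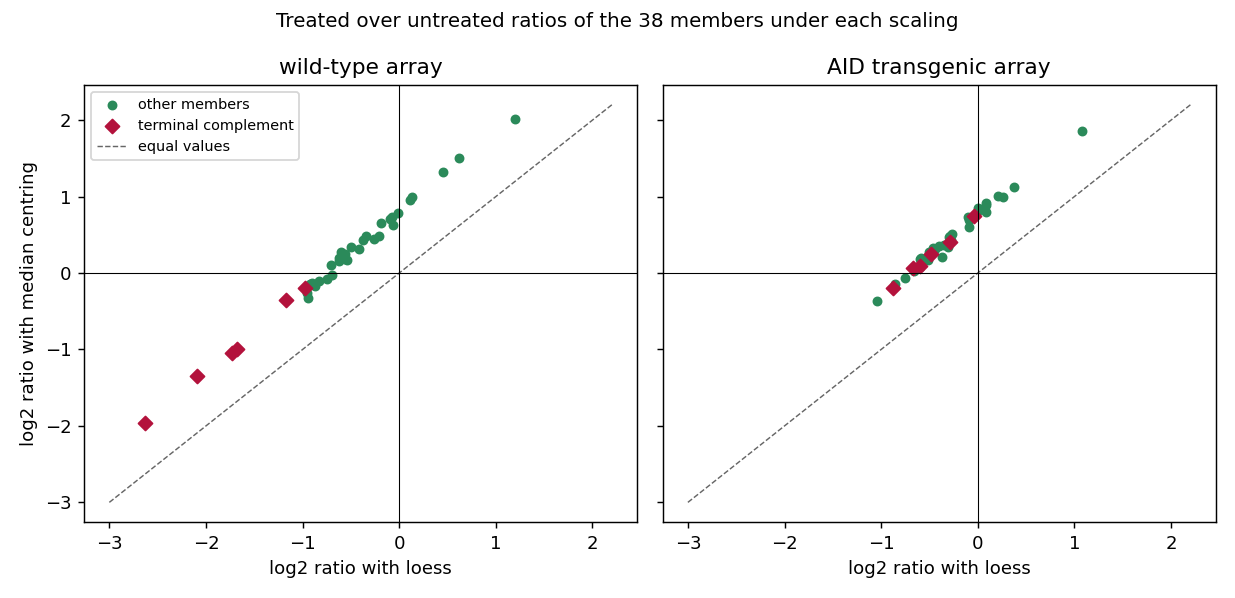
Log2 treatment ratio of the 38 genes with loess (horizontal) against median centring (vertical) on each array, with terminal complement as diamonds and other members as circles. The dashed line marks equal values. All points lie above it, so that the wild-type median of the members moves from -0.58 to 0.19 and the AID transgenic median from -0.33 to 0.35, while the order of the genes is nearly kept.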

How the data were processed

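Liver RNA was measured on 2 Agilent 2-colour arrays, both on 1 slide. The authors deposited the scanner output. Mean signals of spots and medians of their local background are intensity values, per the file headers, and the processed signals are intensity values already background-subtracted and dye-normalized. The log ratio they deposited is log10 of Cy5 over Cy3, and its error is a score of the scanner software's error model, per the file headers. The deposited value table equalled this log10 ratio on all 44397 features, with a tolerance of 0 and column medians of 0. The file headers name Feature Extraction 10.7.3.1, whereas the submitters' processing notes name 10.5.1.1.

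Mean signals were corrected with normexp (offset 50) and normalized by loess within arrays in limma 3.58.1 (R 4.3.3), with weight 0 for control and outlier spots, and by Aquantile between arrays for levels. The script was tested on simulated data. Further steps used Python 3.11.15, numpy 2.4.6, pandas 2.3.3 and scipy 1.17.1. Outlier spots (197 and 207 of 43020 non-control spots) were left out, spots of a probe averaged, and probes of a gene averaged. Well above background were 56% and 53.9% of spots in Cy3, and 68.4% and 68.8% in Cy5, on the wild-type and AID transgenic arrays. Over 373 probes with at least 8 spots, spots of a probe differed by a median SD of 0.07 in log2 ratio on each array. Members were named by the file's gene name, other probes by accession, symbol or unique synonym in a RefSeq table of GRCm38.p6, and 9250 probes had no match. A gene counted as measured when a probe was well above background in at least 1 channel that entered, and as higher or lower at 2-fold. Where the dim side was not well above background, "at least" gives the fold against the higher of the dim level and the lowest level well above background, open to dye bias. The printed error was computed for the scanner software's own ratio and combined over probes. The members and lists were chosen with earlier results of these data known. All members are named, with channel levels for those at 2-fold, the terminal and fibrinogen genes and the extremes of each role group, and listed pathway genes at 2-fold. The genes C1qa to C1qc, the regulators and the acute-phase genes printed beyond that rule were chosen after their values were seen. Some listed genes and 1 listed motif are not reported here. Alternatives were another offset, the processed signals, median centring, other normalizations between arrays, filters on dim probes and other choices of probes and members.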

Additional observations from a re-analysis of the deposited data

Results flagged for a closer look

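The treatment ratio of C2, which encodes the protease part of the classical C3 convertase, pointed in opposite directions in the genotypes. It was -0.56 ± 0.21 in wild-type and 0.26 ± 0.21 in AID transgenic mice, a difference of 0.82 that was not tested. C2 has 1 probe, and each value comes from 1 array. Median centring gave 0.18 and 1.0, beside 0.35 and 0.34 for all genes, with a difference of 0.81.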

How the results depend on the processing

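With the scanner software's processed signals, 0 members were at least 2-fold higher in treated AID transgenic liver. Median centring in place of loess gave 3 members higher and 3 lower in wild-type mice, with a median of 0.19. In AID transgenic mice it gave 3 higher and 0 lower with a median of 0.35, so both medians changed sign. The shares of all genes at 2-fold under this scaling are not given here, so these counts do not set the members apart. The medians of all genes rose to 0.35 and 0.34 under this scaling, and relative to them the members were at -0.16 and 0.01. The cause was not tested. Without C6, C8a, C8b and C9, known for sex bias, 1 member was lower in wild-type mice, 1 member, Hc, had the higher difference between ratios, and 0 members were higher in treated AID transgenic liver, since the setting removes called genes. Of the counts and medians, 137 other values under the alternatives kept their direction and stayed within 1.5 times or the set limit. Of single member values, 618 stayed within the limit and 54 moved. The median difference between ratios of the terminal genes lay between 1.27 and 1.36 in the settings that kept all 6 of them. With no normalization between arrays the members' median in treated livers was -0.01, beside -0.11 for all genes. The slide as a block was not run because both arrays share 1 slide. No paired analysis was possible because each genotype has 1 array. All members were well above background in every channel, and precision is limited by having 1 array per genotype.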
